A study of Mus musculus with 6 samples.

Results

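The Hox genes of mouse keratinocytes were described by cluster and by position, from messenger RNA of skin keratinocytes with and without the laminin α3 chain gene Lama3. Members were all genes of the deposited count table whose identifier maps to a protein-coding symbol of Hoxa, Hoxb, Hoxc or Hoxd followed by digits only. This gave 39 members among 45513 genes, with 11 in HoxA, 10 in HoxB, 9 in HoxC and 9 in HoxD. The rule takes symbols only and uses no measured value, although it was set with earlier results of these data known.

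RNA was taken from keratinocytes isolated from the skin of 3 control and 3 knockout mice on a C57BL/6 background, and was sequenced as paired reads of 100 bases. In the floxed Lama3 allele, exons 50 to 53 lie between loxP sites. All mice received chow with 400 mg per kg of tamoxifen, which switches on the CreERT recombinase. The knockout mice were Lama3flox/flox with K14-CreERT. The control mice were Lama3wt/flox with K14-CreERT by the design text, while their genotype label reads wild type, so whether the controls carried the Cre and a floxed allele rests on the design text. The keratin 14 promoter limits the deletion to basal keratinocytes and cells derived from them. The labels give neither the body region the skin came from nor the age or sex of the mice.

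Hox genes encode transcription factors with a homeodomain, and they lie in 4 clusters in which the order of the genes along the chromosome follows the order in which they act along the body axis. Genes with the same number in different clusters are paralogues, and low numbers (the 3′ end of a cluster) act towards the head while high numbers (the 5′ end) act towards the tail and the ends of the limbs. In adult skin, cells keep part of this positional pattern according to body site, and Hoxc13 is known for a separate role in the hair follicle, where it activates hair keratin genes.

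The clusters also hold microRNA genes, and their mature sequences are shown because they share seeds and because part of their known targets are Hox messenger RNAs. The sequences are from RefSeq (GRCm38.p6), written 5′ to 3′ with the seed (bases 2 to 8) in capitals.
miR-10a-5p: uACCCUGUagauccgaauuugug
miR-10b-5p: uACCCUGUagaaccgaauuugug
miR-196a-5p: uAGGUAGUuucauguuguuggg
miR-196b-5p: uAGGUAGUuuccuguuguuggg
miR-615-3p: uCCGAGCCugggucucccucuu
The gene of miR-10a lies in HoxB between Hoxb5 and Hoxb4 (chr11:96317186-96317208, plus strand), and that of miR-10b lies in HoxD within the annotated span of Hoxd4 (chr2:74726074-74726096, plus strand). They share the seed ACCCUGU. The mature miR-196a sequence is encoded at 2 places, between Hoxb13 and Hoxb9 (chr11:96265187-96265208, plus strand) and between Hoxc10 and Hoxc9 (chr15:102973365-102973386, plus strand). Its relative miR-196b is encoded within the span of Hoxa9 (chr6:52230129-52230150, minus strand), and all 3 places give the seed AGGUAGU. The gene of miR-615 lies within the annotated span of Hoxc5 (chr15:103014969-103014990, plus strand), and its 3p arm has a seed of its own.

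The 3′ untranslated region of Hoxb8 held 1 site for miR-196a, at chr11:96284888-96284909 on the plus strand, that pairs along the whole microRNA. It is shown 5′ to 3′ with the stretch opposite the seed in capitals, from the GENCODE transcript sequence on GRCm38.
Hoxb8 site: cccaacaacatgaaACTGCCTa
Of its 22 bases, 21 were complementary to miR-196a, 1 formed a G:U pair and 0 were unpaired. In a scan without gaps over the transcripts of 21901 genes, 2 genes had a site with 0 unpaired bases. Cleavage of Hoxb8 messenger RNA by miR-196 is known from other work, and Hoxb8 had 9.12, 15.0 and 14.4 CPM (counts scaled to the size of the library) in controls 1, 2 and 3 against 13.3, 9.98 and 9.72 CPM in knockouts 1, 2 and 3. Mature microRNAs were not measured by this assay. A perfect match to the miR-196 seed (ACTACCT, sense strand of the transcript) occurred 12 times in the annotated 3′ untranslated regions of 8 Hox genes, with 4 matches in Hoxa7 and 2 in Hoxc8. Over the whole transcript it occurred in 11 of 39 Hox genes and in 15.9% of all 21901 genes. The match to the miR-10 seed (ACAGGGT) occurred over the whole transcript in 7 of 39 Hox genes and in 18.9% of all genes. A seed match describes letters only and is not evidence of binding.

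Promoter sequence is shown for 3 HoxA genes that stand for the range of the data: Hoxa7, with the highest level of all Hox genes; Hoxa9, lower in the knockouts; and Hoxa13, with 0 counts in every library. Each run is the 250 bases before a transcription start of RefSeq (GRCm38.p6), on the minus strand and written 5′ to 3′, with each CG pair in capitals.
Hoxa7: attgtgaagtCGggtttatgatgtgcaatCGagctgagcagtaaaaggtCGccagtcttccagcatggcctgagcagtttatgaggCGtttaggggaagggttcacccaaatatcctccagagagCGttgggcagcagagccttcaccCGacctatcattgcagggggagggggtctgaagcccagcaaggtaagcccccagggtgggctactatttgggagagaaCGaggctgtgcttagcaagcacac
Hoxa9: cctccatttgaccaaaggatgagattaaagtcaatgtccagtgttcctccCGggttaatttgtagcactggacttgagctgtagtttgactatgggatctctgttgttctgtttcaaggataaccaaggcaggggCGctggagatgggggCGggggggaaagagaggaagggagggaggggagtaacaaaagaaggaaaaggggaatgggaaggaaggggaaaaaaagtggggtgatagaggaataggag
Hoxa13: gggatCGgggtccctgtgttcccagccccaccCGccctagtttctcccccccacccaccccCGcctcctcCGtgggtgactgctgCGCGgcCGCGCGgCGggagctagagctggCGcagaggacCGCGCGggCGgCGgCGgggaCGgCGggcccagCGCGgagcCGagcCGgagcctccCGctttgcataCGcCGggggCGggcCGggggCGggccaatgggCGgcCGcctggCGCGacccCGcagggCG
The Hoxa7 stretch (chr6:52218574-52218823) held 7 CG pairs, the Hoxa9 stretch (chr6:52227371-52227620) 3, and the Hoxa13 stretch (chr6:52260881-52261130) 35. The Hoxa7 and Hoxa9 stretches lie inside the annotated spans of their genes, before an inner start. The Hoxa13 stretch lies just outside the span of its gene, so the 3 are not like for like. RefSeq windows from 250 bases before to 50 after the start matched 22 of the 39 Hox genes, with 24 windows. They held a median of 14.5 CG pairs, against 7 over all 32851 promoter windows. The 12 windows of Hox genes with enough counts to be tested held a median of 11. The 12 windows of Hox genes under 10 counts in every library, from 10 genes, held a median of 20.5. The clusters are covered unequally, with only Hoxb1, Hoxb4 and Hoxb8 of HoxB and Hoxc4 of HoxC. This difference was therefore not separated from cluster or from choice of window. The homeodomain core TAATTA (the same letters on both strands) was in 2 of the 24 Hox windows and in 5.29% of all windows. Both Hox windows with this core belong to the same gene, Hoxd11. The Hox and Pbx motif TGATTNAT, searched on both strands, was in 2 of 24 and in 3.22% of all windows. The TATA element TATAAA, searched on both strands, was in 4 of 24 and in 13.6% of all windows.

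Whole libraries held 20126395 to 28473479 counts, so that 1 count was worth 0.0349 to 0.0476 CPM, where CPM is the count scaled by library size and a composition (TMM) factor. The Lama3 gene had 140.7, 141.6 and 114.3 CPM in controls 1 to 3 and 97.3, 98.9 and 79.2 CPM in knockouts 1 to 3 (log2 fold change -0.53, SE 0.14, adjusted p = 0.0215, edgeR). Counts over the whole gene check the deletion of a few exons only in part. Xist, the RNA of the inactive X chromosome, had 36549 counts in control 1, 21266 in knockout 1 and 26153 in knockout 2 and at most 43 elsewhere. Ddx3y of the Y chromosome had 2293 to 3240 counts in the other 3 libraries, so controls held 1 female library and knockouts 2, and control 1 is the only female control. Basal and suprabasal keratinocyte markers were present in all libraries, with summed levels of 13773 to 19242 CPM for 8 basal genes. The 9 fibroblast genes of the marker list (such as Col1a1 and Dcn) summed to 30.3 to 97.6 CPM in controls and 35.9 to 47.1 CPM in knockouts, and none was at 0 throughout.

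Over the 4 clusters together, Hox RNA was found mainly from groups 1 to 8. Groups 1 to 4 had 9891 counts summed over the libraries, groups 5 to 8 had 24884 and groups 9 to 13 had 4480. The clusters differed in this, as Hoxc13 was among the higher HoxC genes and Hoxd1 and Hoxd3 stayed under 10 counts. Of the 39 members, 25 had at least 1 count in every library and 24 had at least 10 in every library, while Hoxa11, Hoxa13, Hoxb13, Hoxd11, Hoxd12 and Hoxd13 had 0 counts in all 6 libraries. A count of 0 allows a level of up to 0.105 to 0.143 CPM, taking 3 counts as the limit in each library and counting error only. Another 8 members (Hoxa10, Hoxb1, Hoxc10, Hoxc11, Hoxc12, Hoxd1, Hoxd3 and Hoxd10) had some counts but stayed under 10 in every library, the highest being 7 counts for Hoxd3 in knockout 3. The filter on low counts kept 25 members for the test: 9 of 12 in groups 1 to 4, 11 of 11 in groups 5 to 8 and 5 of 16 in groups 9 to 13. By cluster it kept 8 of 11 in HoxA, 8 of 10 in HoxB, 6 of 9 in HoxC and 3 of 9 in HoxD. The 14 members left out all stayed under 10 counts in every library.

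Of the 12 members in groups 10 to 13, the factors of the hind body and distal limb, Hoxc13 alone reached 10 counts in any library. It had 187 to 495 counts per library. Its neighbours Hoxc12, Hoxc11 and Hoxc10 had at most 4, 1 and 2 counts. Hoxc9, the next gene towards the 3′ end, had 2 to 16 counts, whereas Hoxc8 beyond it had 340 to 533. HoxC RNA was thus found at Hoxc13 and again from Hoxc8 to Hoxc4, with 4 genes of low count between them.

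Between genes, levels were compared as CPM per kilobase (kb) of annotated exon, as mean ± SD of 3 controls. Hoxa7 was the highest at 22.5 ± 6.33 per kb and gave 15.3% to 22.6% of the summed Hox level of a library. Its lowest library (16.0 per kb, knockout 3) lay above the highest library of the next gene, Hoxa5 (12.1 per kb, control 1). Hoxa5 followed at 10.3 ± 2.67, Hoxb7 at 9.15 ± 0.53 and Hoxb6 at 8.40 ± 1.62 per kb, and these 3 did not differ beyond their spread. Hoxc8 (6.64 ± 1.28), Hoxc13 (6.53 ± 2.83), Hoxb9 (5.71 ± 3.66), Hoxc6 (5.27 ± 0.43), Hoxb2 (5.01 ± 0.11), Hoxb8 (4.88 ± 1.23), Hoxb4 (4.47 ± 0.27), Hoxb3 (4.11 ± 0.74) and Hoxa6 formed a middle range in which neighbours overlapped. Below them lay Hoxd8 (3.12 ± 2.32), Hoxc4 (2.33 ± 0.40), Hoxa2 (2.29 ± 0.35), Hoxb5 (1.46 ± 0.53), Hoxc5 (1.42 ± 0.29), Hoxa3 (1.36 ± 0.26) and Hoxa4 (1.35 ± 0.14). Hoxa9 (0.71 ± 0.39), Hoxd9 (0.38 ± 0.19), Hoxd4 (0.33 ± 0.16) and Hoxc9 (0.11 ± 0.10) had the lowest levels given here.

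Overlapping gene models limit this order. Of the exon bases, 52.9% in Hoxb3, 27.3% in Hoxb2, 52.3% in Hoxd4 and 27.1% in Hoxa3 are shared with another annotated gene. With the whole count of a gene divided by its unshared exon length, Hoxb3 moved from place 12 to 4 and Hoxb2 from 9 to 6. Hoxa7 stayed at 1. Any reads counted in shared bases stay in this value, so it is not a level measured over unshared bases. The files do not say how reads in shared bases were counted, and Hoxc5 as annotated runs from chr15:102967443 to 103017429, across Hoxc6, Hoxc8, Hoxc9 and part of Hoxc10.

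**Figure D1:**
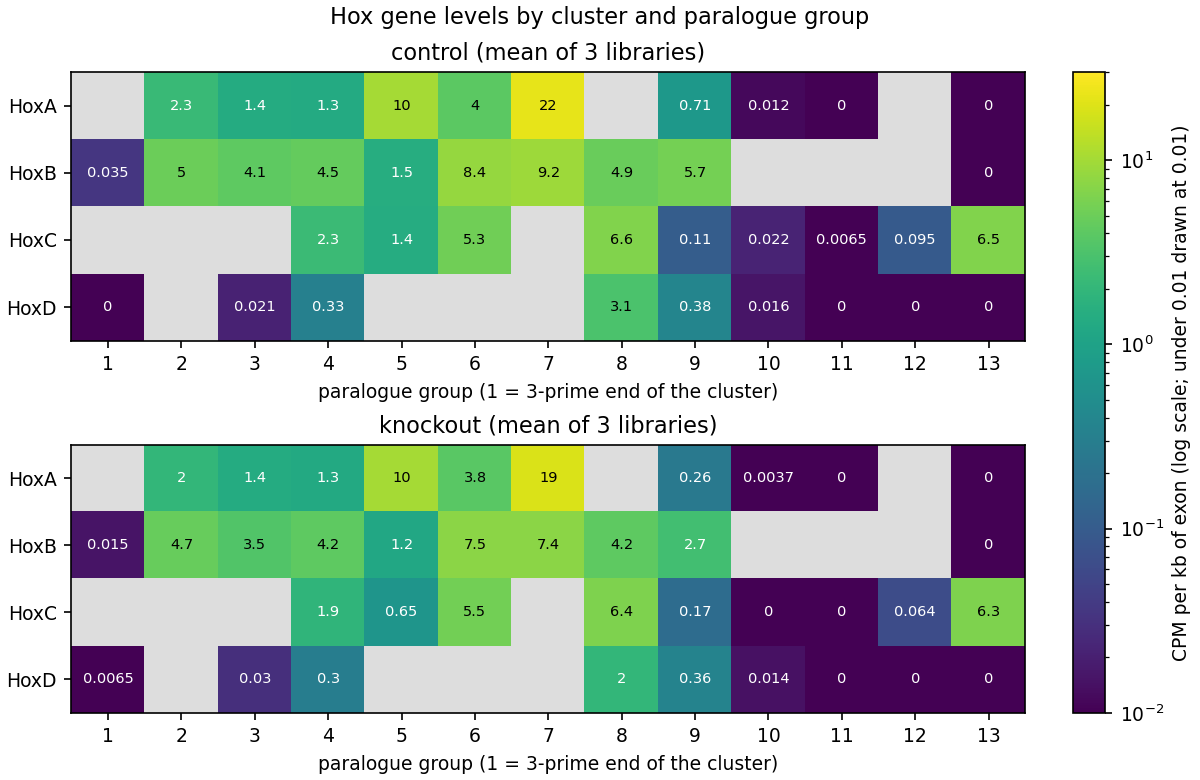
Mean level of each Hox gene in 3 control (top) and 3 knockout libraries (bottom), as CPM per kb of exon on a log colour scale, by cluster (vertical) and paralogue group (horizontal); grey marks groups a cluster does not have or that are not reported. The highest levels were those of Hoxa7 (22.5 per kb in controls), Hoxa5, Hoxb7 and Hoxb6, and among groups 10 to 13 only Hoxc13 (6.53) lies above 0.1 per kb.

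Summed over its members, HoxA had 43.2 ± 9.93 CPM per kb in controls and 39.3 ± 4.15 in knockouts (SD, n = 3 each, as for the sums that follow). HoxB had 43.2 ± 8.47 in controls and 35.3 ± 4.96 in knockouts. HoxC had 22.4 ± 5.27 and 20.9 ± 3.43, and HoxD 3.86 ± 2.65 and 2.69 ± 1.13. The control and knockout libraries overlapped in each cluster, and no test was run on these sums. HoxD gave 1.53% to 5.17% of the summed Hox level of a library, and Hoxd8 was its main member.

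Between knockouts and controls, 0 of the 25 tested Hox genes were higher and 2 were lower, Hoxa9 and Hoxc5. The quasi-likelihood test of edgeR was used, its p-values were adjusted by Benjamini-Hochberg over 15513 genes, and calls needed an adjusted value below 0.05. Over all tested genes, 17.4% were called higher and 18.8% lower, which is 36.2% in either direction, against 8% of the tested Hox genes. Hoxa9 and Hoxc5 were also the only 2 with an unadjusted p under 0.05. DESeq2 likewise called 0 Hox genes higher and 2 lower. The median log2 fold change was -0.11 over the tested Hox genes and -0.02 over all tested genes, and 20 of the 25 Hox genes (80%) had a log2 fold change within 0.5 of 0, against 57.3% of all genes. Folds lay above 0 in 5 Hox genes and below 0 in 20, and upper-quartile scaling, which moved the median of all genes by -0.15, put 2 above and 23 below. Knockout and control libraries did not overlap for 1 of the 25, Hoxc5, and for 51.7% of all tested genes. In these bulk samples, fewer cells of a type and less RNA per cell cannot be told apart.

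**Figure D2:**
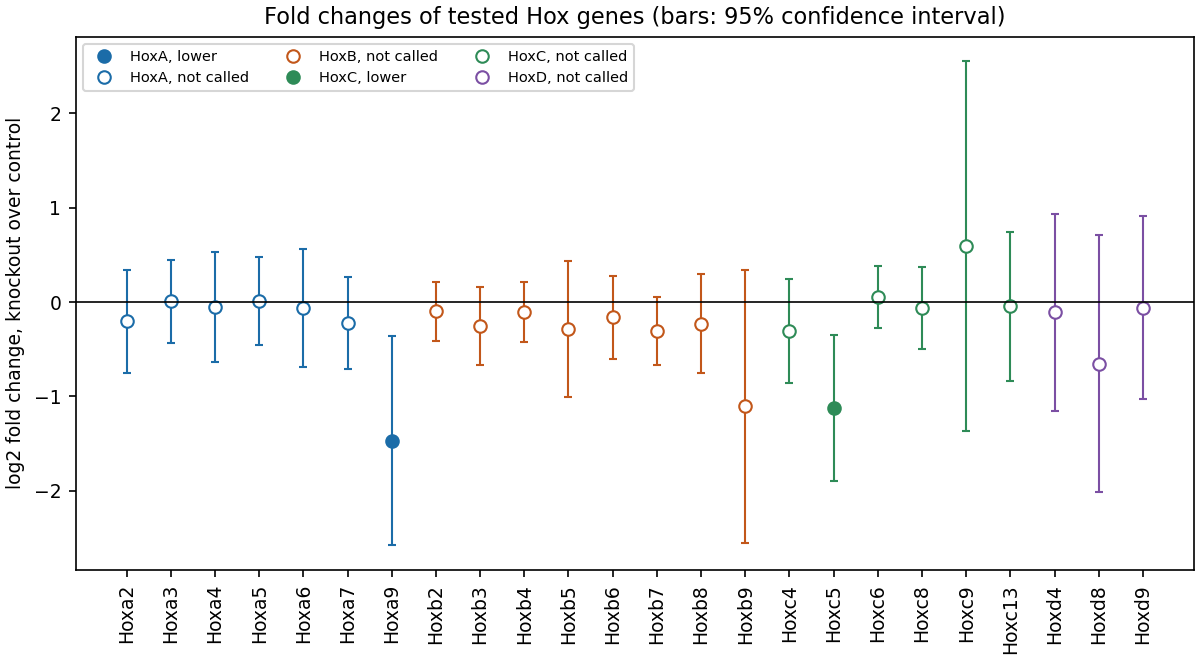
Log2 fold change of knockout over control (vertical axis) for 24 of the tested Hox genes in order of cluster and position, with 95% confidence intervals; filled points are called. Hoxa9 at -1.47 and Hoxc5 at -1.12 are the filled points, and the interval of Hoxc9, with 2 to 16 counts per library, is the widest.

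Hoxa9, a factor of the posterior body that is also known in blood stem cells, had 1.51, 4.71 and 5.65 CPM in controls 1 to 3. In knockouts 1 to 3 it had 1.65, 1.05 and 1.60 CPM. Controls 2 and 3 were high, and control 1 lay within the knockout range, so the groups overlapped. The log2 fold change was -1.47 (SE 0.48, adjusted p = 0.0448, edgeR). Within the female libraries the values were 1.51 CPM for the control against 1.65 and 1.05 CPM, and within the male libraries 4.71 and 5.65 against 1.60 CPM. With sex as a covariate the log2 fold change was -0.97 (adjusted p = 0.121, edgeR), and the part of sex in the result was not tested further. Without control 1 it was -1.86 (adjusted p = 0.00976, edgeR), and leaving out any other single library ended the call, with log2 fold changes of -1.57 to -1.12 (adjusted p = 0.0809 to 0.140, edgeR). With limma-voom the adjusted p was 0.0975.

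Hoxc5, a factor of the neck and upper trunk level, had 3.44, 4.48 and 5.22 CPM in controls 1 to 3. In knockouts 1 to 3 it had 2.70, 2.16 and 1.20 CPM. All controls lay above all knockouts. The log2 fold change was -1.12 (SE 0.34, adjusted p = 0.0339, edgeR), and with sex as a covariate it was -1.23 (adjusted p = 0.0494, edgeR). The call was lost without control 2 (-1.10, adjusted p = 0.0690), control 3 (-0.98, adjusted p = 0.09997), knockout 2 (-1.17, adjusted p = 0.0753) or knockout 3 (-0.84, adjusted p = 0.0602), all by edgeR. Its annotated neighbours Hoxc4 (log2 fold change -0.31, SE 0.24) and Hoxc6 (0.05, SE 0.14) were not called.

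Hoxb9, the neighbour of Hoxb8 on its 5′ side, had 3.87, 21.1 and 19.1 CPM in controls 1 to 3 and 10.1, 3.59 and 6.82 CPM in knockouts 1 to 3. Control 1 and knockout 2 were low and similar, and the groups overlapped. The log2 fold change was -1.11 (SE 0.62, adjusted p = 0.195, edgeR). Without control 1 it was -1.56 and called (adjusted p = 0.0276, edgeR), and with sex as a covariate it was -0.43 (adjusted p = 0.634, edgeR). Of the tested genes, 1.29% had a ratio of highest to lowest control as large as the 5.46 of Hoxb9.

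Control 1 was low in more Hox genes than Hoxb9. It was the lowest control in 16 of the 25 tested Hox genes, and in 36.8% of all tested genes. The ratio of highest to lowest control had a median of 1.61 over the tested Hox genes and 1.302 over all tested genes, with 1.37 and 1.32 in the knockouts. At the 5′ side of Hoxb9, the long non-coding RNA gene Gm53 had 8.95, 23.4 and 20.7 CPM in controls 1 to 3 and 18.5, 13.2 and 18.3 CPM in the knockouts. The miR-196a precursor gene Mir196a-1 between them had 0.516, 3.00 and 2.75 CPM in the controls and 2.58, 1.08 and 1.85 CPM in the knockouts. It is annotated over 102 bases and reads were 100 bases long. Whether its counts come from the precursor or from a longer transcript across it cannot be told. Control 1 was thus the lowest of all 6 libraries in Gm53 and Mir196a-1, and knockout 2 the lowest in Hoxb9. At Hoxb7, Hoxb4 and Hoxb2 the libraries lay closer together. Levels were 10.1 to 14.8 CPM for Hoxb7, 10.2 to 12.3 CPM for Hoxb4 and 14.3 to 18.3 CPM for Hoxb2. Hoxb5, the neighbour of Hoxb4, spread more, with 2.41, 4.57 and 5.22 CPM in controls 1 to 3. The spread thus did not fall steadily along the cluster. The cause of the difference between libraries was not tested, and control 1 is also the only female control.

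**Figure D3:**
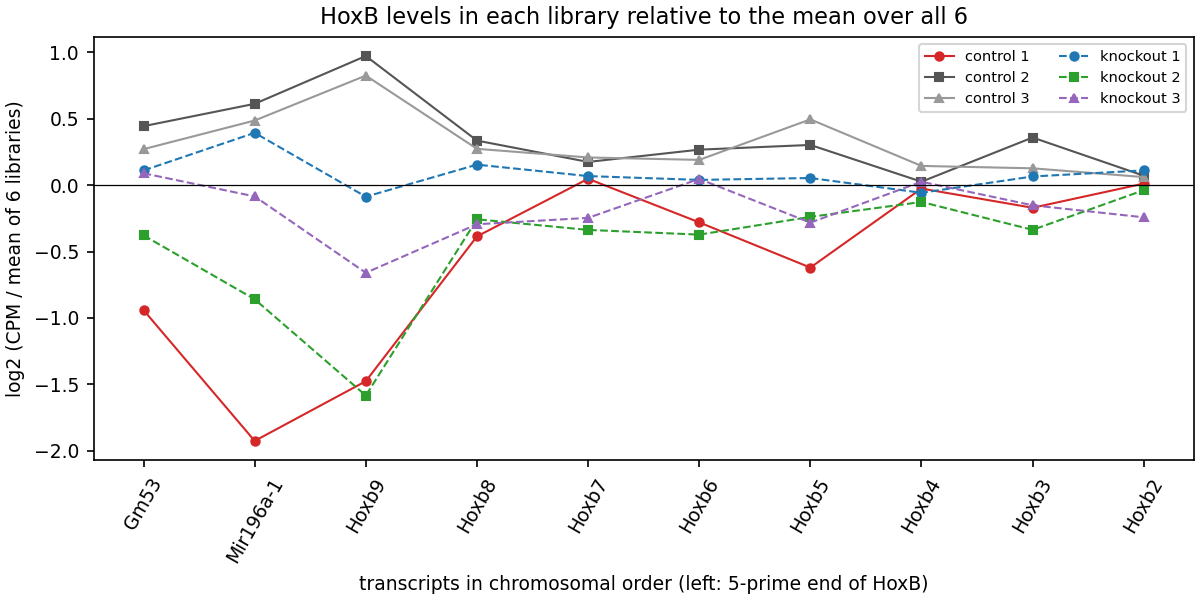
Log2 of each library's CPM over the mean of the 6 libraries (vertical axis) for HoxB transcripts in chromosomal order, 5′ end at the left; solid lines are controls and dashed lines knockouts. Libraries spread apart at Gm53, Mir196a-1 and Hoxb9, where control 1 (0.516 CPM in Mir196a-1) is low, and lie closer together at Hoxb7, Hoxb4 and Hoxb2. Control 1 is also the lowest library at Hoxb8 and at Hoxb5.

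Of the HoxA genes, Hoxa7 had 62.2, 83.9 and 47.7 CPM in controls 1 to 3 and 61.3, 59.1 and 46.1 CPM in knockouts 1 to 3, with overlapping groups (log2 fold change -0.22, SE 0.21). Hoxa5, at 13.5 to 22.7 CPM in controls and 18.2 to 21.4 CPM in knockouts, had a log2 fold change of 0.01 (SE 0.20) and Hoxa6 one of -0.06 (SE 0.27). The head-end genes Hoxa2 (-0.20, SE 0.24), Hoxa3 (0.01, SE 0.19) and Hoxa4 (-0.05, SE 0.25) were not called. The 95% interval of Hoxa3 reached from -0.44 to 0.45, so fold changes up to these sizes lie within it.

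All 8 tested HoxB genes had a log2 fold change below 0, and 0 of them were called. The values were -0.10 (SE 0.13) for Hoxb2, -0.25 (SE 0.18) for Hoxb3, -0.10 (SE 0.14) for Hoxb4, -0.28 (SE 0.31) for Hoxb5, -0.16 (SE 0.19) for Hoxb6, -0.31 (SE 0.16) for Hoxb7 and -0.23 (SE 0.23) for Hoxb8, beside -1.11 for Hoxb9. Hoxb7 was called with upper-quartile scaling (-0.46, adjusted p = 0.0482, edgeR). Hoxb2 had the narrowest 95% interval of its log2 fold change, from -0.41 to 0.21.

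Hoxc13, the hair follicle member, had 8.05, 20.7 and 19.4 CPM in controls 1 to 3 and 19.6, 13.5 and 13.7 CPM in knockouts 1 to 3. Control 1 was the lowest library and the groups overlapped. The log2 fold change was -0.04 (SE 0.34, adjusted p = 0.931, edgeR), with a 95% interval from -0.83 to 0.74, and its sign changed among the alternative analyses. The other HoxC genes were Hoxc8 (-0.06, SE 0.19) and Hoxc9 (0.60, SE 0.85), both not called.

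A list of hair keratin and root sheath genes, which also holds their known regulator Foxn1, was set beside it. Of its 19 tested genes, Foxn1 included, 16 were lower and 0 higher, against 18.8% lower and 17.4% higher over all tested genes, with a median log2 fold change of -5.26 (-5.04 with Krt81, at 0 counts in every knockout, taken at the limit of 3 counts). The inner root sheath keratin Krt27 had 9.98, 32.0 and 16.2 CPM in controls 1 to 3 and 0.211, 0.279 and 0.326 CPM in knockouts 1 to 3. Krt27 fell, with a log2 fold change of -6.12 (SE 0.54), as did Krt25 (-7.45, SE 0.66), Krt28 (-6.71, SE 0.68) and the hair cortex keratin Krt35 (-8.16, SE 0.78). In knockouts 1 to 3, Krt25 had 2, 4 and 8 counts, Krt28 had 1, 4 and 4, and Krt35 had 1, 4 and 0. The exact sizes of these folds thus rest on very few counts. Foxn1, named after its values were seen, had 11.7 to 18.1 CPM in controls and 12.0 to 18.0 CPM in knockouts (log2 fold change 0.11, SE 0.22). Groups did not overlap for 16 of the 19 genes, against 51.7% of all tested genes. They overlapped for Foxn1 and for the hair keratins Krt83 (log2 fold change -1.30, adjusted p = 0.113, edgeR) and Krt84 (-0.72, adjusted p = 0.347, edgeR), which were named after their values were seen.

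**Figure D4:**
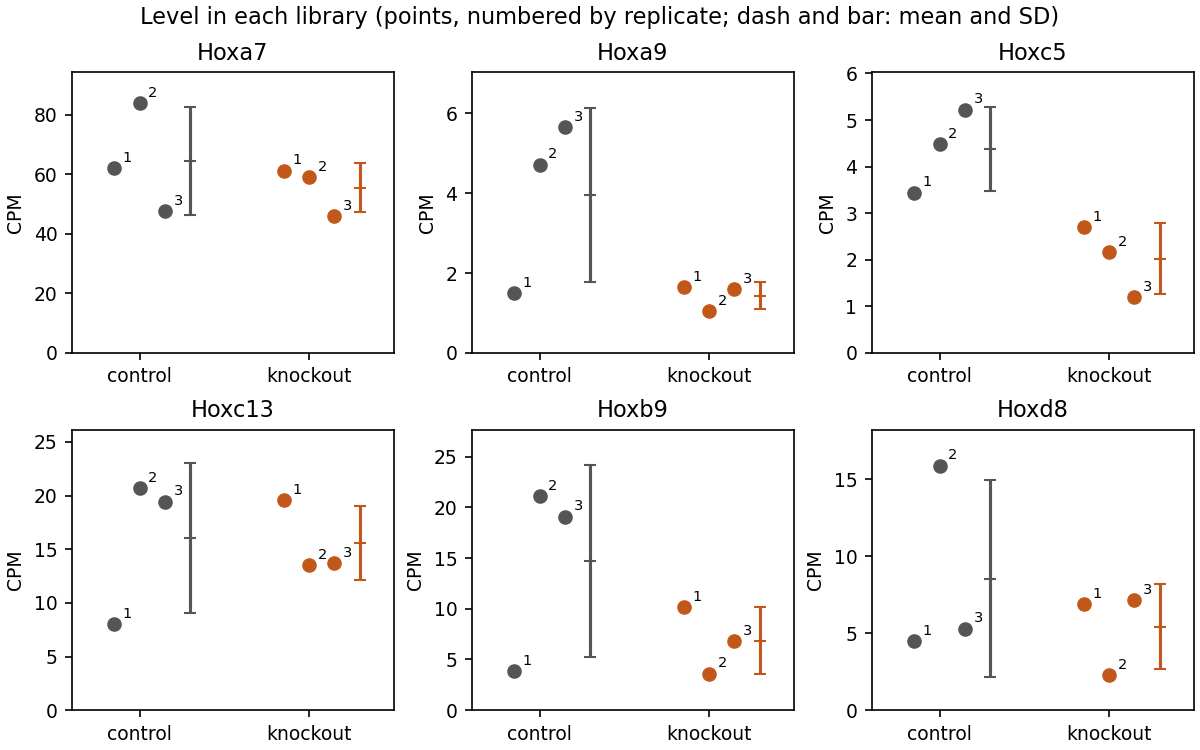
CPM (vertical axis) in each library for 6 Hox genes, with points numbered by replicate and bars for mean and SD of 3 libraries. In Hoxa9, Hoxc13 and Hoxb9 control 1 lies apart from controls 2 and 3, and in Hoxc5 all controls (3.44 to 5.22 CPM) lie above all knockouts (1.20 to 2.70 CPM).

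Hoxd8 was the HoxD gene with the most counts, at 4.48, 15.9 and 5.30 CPM in controls 1 to 3 and 6.89, 2.27 and 7.15 CPM in knockouts 1 to 3. Control 2 was high and knockout 2 low, and the groups overlapped (log2 fold change -0.65, SE 0.58). Hoxd4 (-0.11, SE 0.45) and Hoxd9 (-0.06, SE 0.42) had at most 1.43 CPM in any library and were not called.

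Non-coding genes within or overlapping the 4 clusters numbered 43, of which 13 were tested, 2 were lower and 0 higher, below the 36.2% of all tested genes called in either direction. Gm11536, annotated antisense within the span of Hoxb3 (chr11:96336299-96342108, minus strand), had 0.731, 1.33 and 0.864 CPM in controls 1 to 3 and 0.254, 0.0698 and 0.290 CPM in knockouts 1 to 3. All controls lay above all knockouts, and the log2 fold change was -2.24 (SE 0.51, adjusted p = 0.0140, edgeR). Gm11536 had 17, 28 and 22 counts in controls 1 to 3 and 6, 2 and 8 in knockouts 1 to 3. The size of its fold thus rests on few counts. Hoxb5os, antisense of the Hoxb5 and Hoxb6 region (chr11:96291024-96306910, minus strand), had 0.861, 1.29 and 1.06 CPM against 0.507, 0.488 and 0.617 CPM (log2 fold change -0.98, SE 0.32, adjusted p = 0.0438, edgeR). The Hoxb5os call was lost on leaving out any single library (adjusted p = 0.0592 to 0.135, edgeR). Groups did not overlap for 5 of the 13, against 51.7% of all tested genes. Whether counting used the strand is not stated by the sources at hand, so where an antisense gene shares bases with its sense partner their reads cannot be told apart. Hoxb5os shares 14.4% of its exon bases with other annotated genes and Gm11536 shares 0%.

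Hox proteins bind DNA together with TALE homeodomain cofactors of the Pbx, Meis and Pknox families. Of 9 such genes, all tested, 2 were higher and 0 lower, with a median log2 fold change of 0.06, against 36.2% of all tested genes called in either direction. Pknox2 had 3.79, 2.95 and 2.12 CPM in controls 1 to 3 and 10.2, 7.85 and 7.54 CPM in knockouts 1 to 3, with no overlap, and rose by 1.53 on the log2 scale (SE 0.26, adjusted p = 0.00505, edgeR). Pbx3 rose by 0.48 (SE 0.16, adjusted p = 0.0441, edgeR), a call kept in 7 of 15 alternatives.

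Polycomb proteins keep Hox genes silent and Trithorax proteins keep them active. Of 27 Polycomb genes, all tested, 7 were higher and 5 lower, with a median of 0.08. Ezh2, a histone H3K27 methyltransferase, had 56.5, 45.9 and 49.4 CPM in controls 1 to 3 and 33.1, 36.0 and 31.7 CPM in knockouts 1 to 3. It fell by 0.59 (SE 0.12, adjusted p = 0.00866, edgeR). Its relative Ezh1, named after its values were seen, went the other way. Ezh1 had 76.6, 66.6 and 59.1 CPM in controls 1 to 3 and 95.2, 124.3 and 93.4 CPM in knockouts 1 to 3. It rose by 0.63 (SE 0.15, adjusted p = 0.0168, edgeR). Rbbp4, a histone binding subunit of the Ezh2 complex and other complexes, fell by 0.65 (SE 0.12). Pcgf3 rose by 0.85 (SE 0.13) and Cbx7, which binds the methylated histone, rose by 0.77 (SE 0.18). Of 13 Trithorax and H3K27 demethylase genes, 3 were higher and 2 lower, with a median of 0.27. The methyltransferase Kmt2b rose by 0.57 (SE 0.11), its partner Men1 by 0.59 (SE 0.12) and the demethylase Kdm6b by 0.38 (SE 0.11), while the core subunit Dpy30 fell by 0.90 (SE 0.22). The call of Kdm6b was kept in 9 of 15 alternatives and that of Dpy30 in 12 of 15. These shares, 12 of 27 and 5 of 13, stand beside the 36.2% of all genes called.

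Evx1 and Evx2, which flank clusters, and the ParaHox genes Cdx1, Cdx2, Cdx4, Gsx1, Gsx2 and Pdx1 all stayed under 10 counts in every library. So did the homeobox genes Meox1 and Meox2, and 7 of these 10 genes had 0 counts throughout. Of 28 other homeobox genes of skin, 18 were tested, 6 were higher and 2 lower (8 of 18 called, against 36.2% of all tested genes), with a median of -0.05. Msx2, a factor of the hair matrix, had 7.49, 10.2 and 9.27 CPM in controls 1 to 3 and 4.01, 4.29 and 2.50 CPM in knockouts 1 to 3, and fell by 1.32 (SE 0.25, adjusted p = 0.00749, edgeR). Dlx5 rose by 0.89 (SE 0.19), and Pou2f3 of the upper epidermis rose by 0.48 (SE 0.11). Prrx1, a mesenchymal factor, fell by 4.07 (SE 0.96) from 0.559, 1.05 and 2.98 CPM in controls 1 to 3 to 0, 0.0349 and 0.218 CPM in the knockouts. The call of Pou2f3 was kept in 13 of 15 alternatives and that of Prrx1 in 13 of 14.

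**Figure D5:**
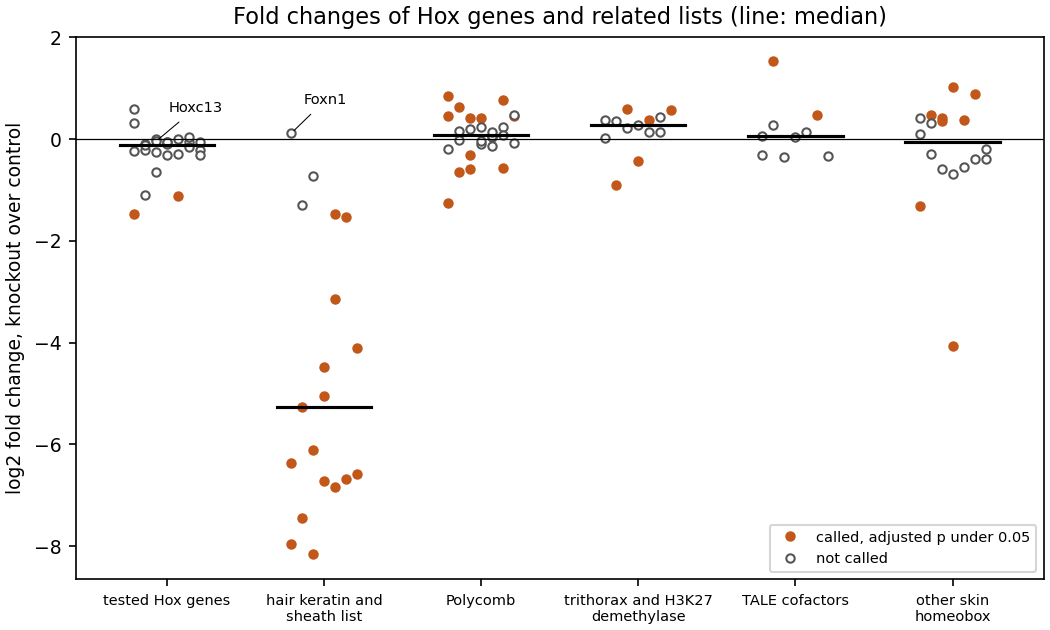
Log2 fold change of knockout over control (vertical axis) for the tested Hox genes and 5 related lists; each point is a gene, filled where called, and lines are medians. The Hox median is -0.11 and the hair keratin median -5.26, with Hoxc13 (-0.04) and Foxn1 (0.11) marked.

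Hox genes are also expressed in other skin cells, and markers of those cells were compared between the groups. Over all tested genes, 18.8% were lower and 17.4% higher. Of 8 tested fibroblast markers 3 were lower and 0 higher, of 7 melanocyte markers 5 were lower, and of 6 T cell markers all 6 were lower. The summed T cell markers were 92.5 to 215.2 CPM in controls and 37.2 to 48.7 CPM in knockouts, and those of melanocytes 82.0 to 213.3 CPM and 54.0 to 59.5 CPM. Fibroblast sums overlapped between the groups, at 30.3 to 97.6 CPM in controls and 35.9 to 47.1 CPM in knockouts. Within the controls, control 1 had the lowest sum for fibroblasts (30.3 CPM) and melanocytes (82.0 CPM) and the highest for T cells (215.2 CPM). No marker of these 3 lists was at 0 in all libraries. Their part in the levels of Hoxa9, Hoxc5 and Hoxb9 was not tested. Suprabasal keratinocyte markers, 6 of 8 higher against 17.4% of all tested genes, summed to 14608 to 17103 CPM in controls and 30183 to 45834 CPM in knockouts. Some other marker lists also held genes called higher. Of 5 macrophage markers 3 were higher and 0 lower. Of 8 tested markers of the hair matrix and precortex 2 were higher and 3 lower.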

How the data were processed

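The authors deposited raw counts of reads for each gene, in whole numbers and with a column for every library. The submitters' processing notes name Cuffdiff 1.3.0, featureCounts 1.4.6, TopHat 1.3.3 and the build GRCm38. Their order, the gene annotation, whether strand was used and how reads with several matches were treated is not given in the sources used here.

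Symbols, positions and exon lengths came from GENCODE M21 (GRCm38), which matched 44585 of 45513 identifiers (98.0%). From the counts, edgeR 4.0.16 (R 4.3.3) gave TMM-scaled CPM and a robust quasi-likelihood test of knockout against control on 15513 genes kept by filterByExpr, with Benjamini-Hochberg adjustment and a threshold of 0.05. The labels describe the libraries of a group as separate mice. Alternatives were DESeq2 1.42.0, voom of limma 3.58.1, other scalings and filters, a replicate block, sex from Xist and Ddx3y as a covariate, a threshold of 0.01, and leaving out each library. The test was checked on simulated counts with the same dispersion for every gene. No effects of sex or of single libraries were simulated, so this check does not bear on those.

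The members and the 25 gene lists were chosen with earlier results of these data known. All tested Hox genes but 1, whose values are not reported here, up to 6 called non-coding genes and up to 4 called genes of smallest p per pathway list were named. Of the hair keratin list, 21 of 22 genes were found. Confidence intervals of fold changes come from the edgeR standard error.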

Additional observations from a re-analysis of the deposited data

How the results depend on the processing

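Depth limits the low members: 14 Hox genes under 10 counts per library could not be compared. With 3 libraries a group, each call rests on few mice. Over all genes, 2693 were higher and 2919 lower. Higher genes numbered 1756 with upper-quartile scaling, where 30.6% of called genes were higher in place of 48.0%, and 1115 at an adjusted p under 0.01, where lower genes numbered 1009. Leaving out each library gave 1586 to 2754 higher and 1714 to 2771 lower genes, with fewest without control 3. The 2 lower Hox genes became 1 with limma-voom, 1 with sex as a covariate, 0 at an adjusted p under 0.01 and 0 to 3 on leaving out each library (3 without control 1, 1 without knockout 1, and 0 without control 2, control 3, knockout 2 or knockout 3). The count of higher Hox genes was 0 in every alternative run. With the replicate block, 0 Hox genes were lower, and Hoxa9 had an adjusted p of 0.0876 and Hoxc5 one of 0.0636 (edgeR). Same-numbered control and knockout libraries had correlated deviations of -0.11, -0.10 and 0.42, so the numbers were not taken to pair the mice. With whole counts divided by unshared exon length, the summed knockout levels were 45.5 CPM per kb for HoxA and 41.0 for HoxB. No called value changed sign. Among Hox genes not called, the sign of the fold changed in 11 genes, and without control 2 the folds lay above 0 in 12 and below 0 in 13. Hoxc9, Hoxd4 and Hoxd9 gave no value with the filter of 1 CPM.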
